A study of Saccharomyces cerevisiae with 6 samples.

Results

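Cryptic unstable transcripts (CUTs) are a class of yeast long non-coding RNA (lncRNA), and they were examined here as the 538 lines of the deposited count table whose name begins with CUT, among 10239 loci in all. Of the 3681 lncRNA loci of the table, the other large classes were 1066 stable unannotated transcripts (SUTs), 837 Xrn1-dependent unstable transcripts (XUTs) and 604 meiotic unstable transcripts (MUTs). The 538 lines carried 528 distinct names. There were 10 names that stood on 2 lines each with different counts, and these 20 lines were kept apart.

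The libraries came from colony biofilms of BR-F, a wild diploid strain of Saccharomyces cerevisiae, grown for 3 days at 28 °C on a membrane over GMA, a medium of 3% glycerol and 1% yeast extract in 0.3% agar. Aerial cells, which form the part of the colony above the membrane, were compared with root cells, which grow through the membrane into the agar, with 3 strand-specific libraries of rRNA-depleted total RNA for each. Both cell types had the same strain, medium and age, no mutation of an RNA decay gene is given for either, and each sample pooled cells from a large number of colonies, described as independent biological replicates. Aerial cells were frozen directly, whereas root cells were first freed of agar by vortexing and centrifugation, so that cell type and handling cannot be told apart.

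CUTs are short RNA polymerase II transcripts, many of which start divergently from the promoters of genes. The Nrd1-Nab3-Sen1 complex ends their transcription early, the TRAMP complex adds a short oligo(A) tail, and the nuclear exosome with its exonuclease Rrp6 then degrades them within the nucleus. They were defined as a class in cells lacking Rrp6. In cells for which no decay mutation is given, as here, only what remains at steady state is sequenced, and decay activity was not measured. A count on a CUT locus therefore reports neither transcription nor decay alone. In bulk RNA, fewer cells with a transcript and less of it per cell cannot be told apart either. No genome positions or sequences of the CUT loci were used here.

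The libraries held between 13764726 and 17095539 counts on all loci. Levels are given as counts, or as CPM, counts scaled to a common library size after TMM normalization, and CPM were not divided by locus length, so that an order of loci by CPM is an order of counts and not of transcript numbers. The genes used to check the labels separated the libraries by their labelled cell type without overlap, with higher RGI2 and SIP18 in aerial cells (adjusted p from edgeR 0.0013 and 0.00977) and higher ARG1, HXK2 and GDH1 in root cells (0.000444, 0.00168 and 0.00221). The study chose its marker genes from the sequencing of these same samples, so this checks the labels only and is no independent result. Differences are log2 fold changes of root over aerial cells, so that a positive value is a higher level in root cells. A locus was called where the levels differed by 2-fold or more and the adjusted p of edgeR's quasi-likelihood test, adjusted by Benjamini-Hochberg across the 7971 loci that entered it, was below 0.05.

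CUT loci held a very small part of the RNA. Aerial replicates 1, 2 and 3 had 7240, 7928 and 8525 counts on them, and root replicates 1, 2 and 3 had 9107, 8852 and 9726. As a share of all counts this came to 0.0526% (95% Wilson interval 0.0514 to 0.0538), 0.0464% (0.0454 to 0.0474) and 0.0580% (0.0567 to 0.0592) in the aerial libraries. The root libraries had 0.0578% (0.0566 to 0.0590), 0.0538% (0.0527 to 0.0549) and 0.0622% (0.0610 to 0.0635). The groups overlapped, aerial replicate 2 was the lowest of the 6, and the means of 0.0523% ± 0.0058 (SD, n = 3) and 0.0579% ± 0.00422 (SD, n = 3) were not separated (p = 0.3, two-sided exact permutation). The smallest p this design allows is 0.1. The share of CUTs among lncRNA counts was 0.643%, 1.84% and 1.37% in aerial and 1.31%, 1.44% and 1.22% in root libraries (exact permutation p = 0.9), and without the 10 loci of any class that held most counts its means were 3.53% in aerial and 4.25% in root cells (exact permutation p = 0.1). The low share in aerial replicate 1 went with a large lncRNA share of all counts there, 8.18%, against 2.52% to 5.10% in the other 5 libraries. All loci without the name of a coding gene were taken as lncRNA. Among them were CSCR1D4 and CNL222WC1, at mean levels of 21500 and 12300 CPM, so few loci weigh heavily on this share. The paper gives a larger lncRNA share of mapped reads, and the reason for the difference was not tested.

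More CUT loci reached a set number of counts in root than in aerial libraries. These numbers were not scaled to the CUT counts of each library, which were 7240 to 8525 in aerial and 8852 to 9726 in root libraries. At least 10 counts were found on 186, 166 and 206 CUT loci in aerial replicates 1, 2 and 3, and on 237, 225 and 244 in root replicates 1, 2 and 3. Every root library was above every aerial library, the means were 186 ± 20.0 and 235 ± 9.61 (SD, n = 3 each), and the exact permutation p was 0.1, the smallest the design allows (0.333 after adjustment over the 10 measures tested per library). Loci with at least 1 count numbered 494, 489 and 501 in aerial and 514, 504 and 516 in root libraries, again without overlap (exact permutation p = 0.1, adjusted 0.333). The 10 CUT loci with most counts took 25.2%, 24.3% and 22.5% of the CUT counts of the aerial libraries and 19.0%, 21.5% and 21.4% of those of the root libraries, a lower share in each root library (exact permutation p = 0.1, adjusted 0.333). For the other classes this count overlapped between the cell types. Loci with at least 10 counts came to 706 ± 40.1 and 703 ± 12.9 for SUTs in aerial and root cells (exact permutation p = 0.9, n = 3 each) and to 538 ± 38.5 and 562 ± 9.07 for XUTs (exact permutation p = 0.5, n = 3 each). For MUTs they came to 252 ± 52.7 and 184 ± 20.0 (exact permutation p = 0.2, n = 3 each). After adjustment over the 10 measures the p-values ran from 0.333 to 0.9. Whether the CUT difference itself differed from that of another class was not tested.

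**Figure D1:**
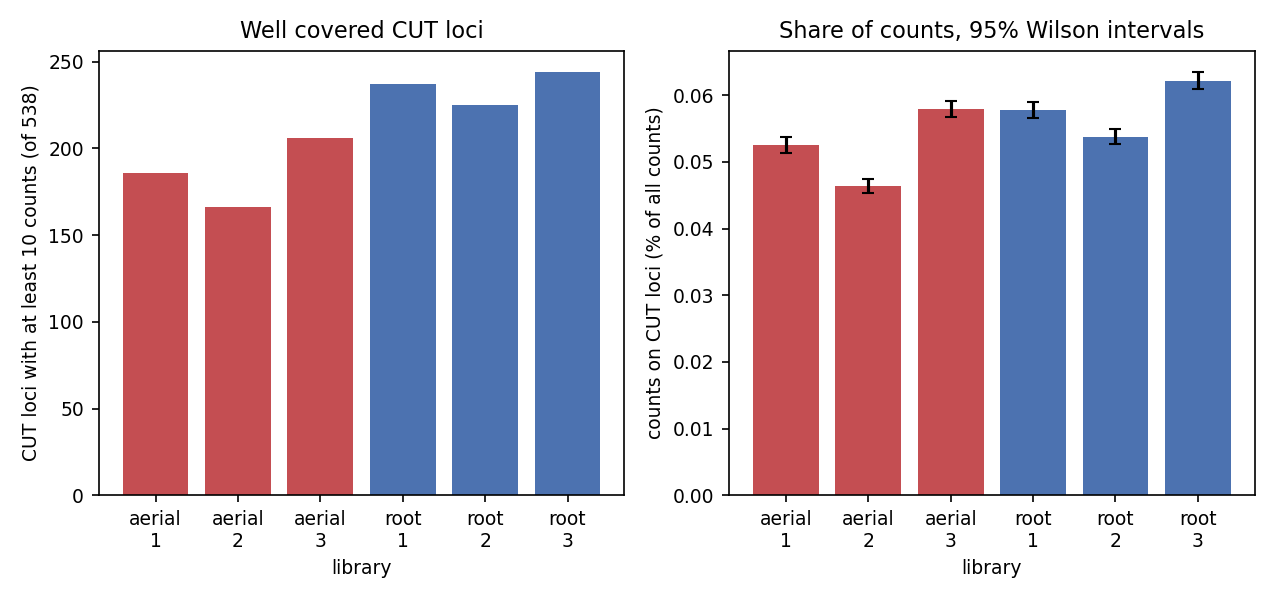
CUT loci in each library, with aerial libraries in red and root libraries in blue. Left, the number of the 538 CUT loci with at least 10 counts, between 166 and 206 in aerial and between 225 and 244 in root libraries; right, the percentage of all counts that fell on CUT loci with 95% Wilson intervals, which runs from 0.0464% to 0.0622% and overlaps between the cell types.

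Few CUT loci had counts enough for a test. The sum over the 6 libraries ran from 1 to 4025 counts per locus with a median of 45, and the middle 50% of loci lay between 19 and 92.75. All 538 had a count in some library and 420 had one in every library. The filter on low counts passed 227 CUT loci, and the other 311, with sums of 1 to 69 counts, were not tested. Among the 227, there were 103 with at least 10 counts in every library, 72 with at least 10 in every root but not in every aerial library, 14 with the reverse, and 38 that passed with neither. A CUT locus could thus enter the test through its root counts more often than through its aerial counts, and counts of calls and medians over those that passed are descriptions for this reason.

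Most of the CUT loci that could be tested did not pass the threshold, and those that did were mostly higher in root cells. Of the 227 tested, 24 (10.6%) were called higher in root cells and 5 (2.20%) higher in aerial cells. Over all loci tested, 10.8% were called higher in root cells and 9.20% higher in aerial cells, 20.0% together, so the CUT share on the root side was near the background and the share on the aerial side was below it. Among the 2098 lncRNA loci tested, 7.20% were higher in root and 9.39% in aerial cells. The median log2 fold change of the CUT loci tested was 0.24, with the middle 50% between -0.26 and 0.75, and 148 of 227 (65.2%) were above 0. Over all loci the median was -0.03 and 48.2% were above 0. The medians of SUTs and XUTs, at -0.04 and 0.02, stood close to this, and that of MUTs was -0.77 with 31.5% of 222 loci called higher in aerial cells.

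Leaving out single libraries moved these figures. The share of all loci called in the same fits is not given here, so whether the changes were particular to CUTs was not tested. Without aerial replicate 1, 45 CUT loci were called higher in root cells and the median was 0.52, whereas without aerial replicate 2 the median was 0.08, with 27 calls on the root side and 12 on the aerial side. Calls on the root side fell to 14 without aerial replicate 3, 12 without root replicate 1 and 11 without root replicate 3. Those on the aerial side fell to 2 without aerial replicate 3, 3 without root replicate 1, 2 without root replicate 2 and 1 without root replicate 3. The median log2 CPM of the CUT loci tested, measured from the mean of the root libraries, was -0.01, -0.57 and -0.14 in aerial replicates 1, 2 and 3 and 0.08, -0.14 and 0.08 in the root replicates. Aerial replicate 2 thus had the lowest CUT level, and the other 2 aerial libraries lay within the range of the root libraries.

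**Figure D2:**
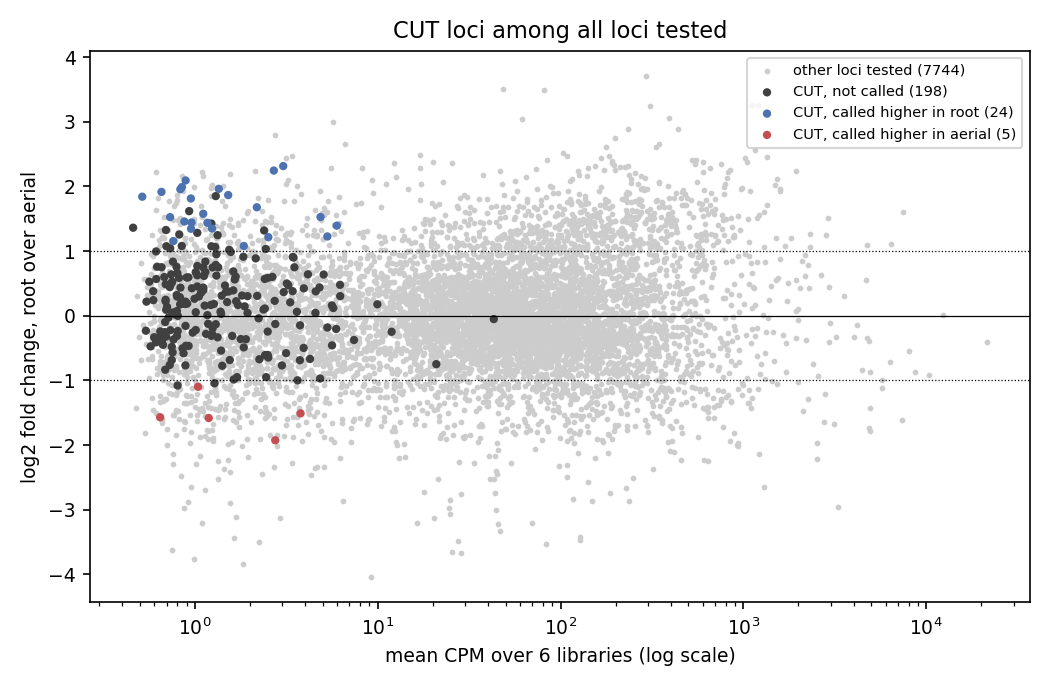
Each point is a locus tested, with its mean CPM over the 6 libraries on a log scale and its log2 fold change of root over aerial cells; dotted lines mark a fold change of 2. The 227 CUT loci lie between 0.459 and 43.1 CPM, with 24 called higher in root cells (blue) and 5 called higher in aerial cells (red) among 198 that were not called (dark grey).

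**Figure D3:**
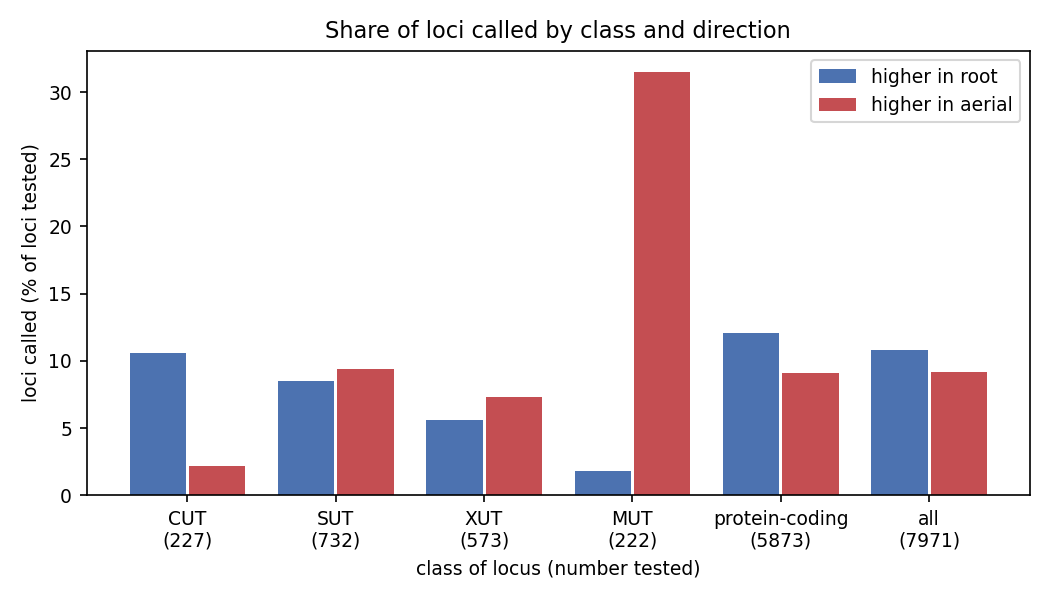
Percentage of the loci tested in each class that were called higher in root cells (blue) or in aerial cells (red), with the number tested in brackets. CUTs had 10.6% and 2.20%, against 10.8% and 9.20% over all loci, 8.47% and 9.43% for SUTs, 5.58% and 7.33% for XUTs and 1.80% and 31.5% for MUTs.

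The split was compared with that of loci of a like level. A like mean level does not remove the uneven entry into the test. Of the 227 CUT loci, 72 had at least 10 counts in every root but not every aerial library, and 14 the reverse. Only 6 root-side and 2 aerial-side calls had at least 10 counts in every library, so the shares below are descriptions. CUT loci had a median of 1.19 CPM, against 36.5 CPM for all loci. Under 2 CPM, 17 of 165 CUT loci (10.3%) were called higher in root and 3 (1.82%) in aerial cells, where all 1266 loci at this level had 6.64% and 8.61%. The 883 other lncRNA loci under 2 CPM had 6.34% and 10.4%, and medians of 0.29 for CUTs and -0.08 for the others. At 2 CPM or more, 7 of 62 CUT loci (11.3%) were called higher in root and 2 (3.23%) in aerial cells, beside 11.6% and 9.31% of all 6705 loci. Of the CUT loci tested, 51 had every root library above every aerial library in CPM and 13 had the reverse, where 25.1% and 23.4% of all loci did so. At an unadjusted p below 0.05 there were 42 and 11 CUT loci, and 21.4% and 21.7% of all loci.

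The locus with the largest difference was CUT557. It had 7, 31 and 11 counts in aerial replicates 1, 2 and 3 and 76, 85 and 81 counts in root replicates 1, 2 and 3. The root libraries lay close together at 5.09 ± 0.0738 CPM (SD, n = 3), the aerial libraries at 0.981 ± 0.594 CPM, and the fold change was 4.97 (log2 2.31, SE 0.37, adjusted p = 0.00265). CUT561 had 21, 9 and 11 counts in aerial and 62, 86 and 63 counts in root libraries, 4.74-fold more (log2 2.25, SE 0.42, adjusted p = 0.00518). CUT503 was 4.27-fold higher in root cells on fewer counts, 6, 3 and 6 in aerial and 20, 24 and 24 in root libraries (log2 2.09, SE 0.41, adjusted p = 0.00631). At these 3 loci the lowest root library held more counts than the highest aerial library, and each stayed called when any single library was left out. Each also had fewer than 10 counts in some aerial library and at least 10 in every root library. They could thus enter the test through their root counts, and the fits with a library left out are descriptions.

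CUT641 and CUT480 resembled each other in counts, and in both the highest aerial library was replicate 2. CUT641 had 5, 17 and 4 counts in aerial and 38, 28 and 36 counts in root libraries (3.90-fold, log2 1.96, SE 0.44, adjusted p = 0.0104). CUT480 had 5, 17 and 9 counts in aerial and 38, 35 and 41 counts in root libraries (3.65-fold, log2 1.87, SE 0.34, adjusted p = 0.00451). Both were called whichever library was left out, as were CUT091 and CUT158 among the loci called with smaller differences.

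The other 5 of the 10 largest root-side differences each lost their call when certain libraries were left out. CUT683 had 8, 5 and 2 counts in aerial and 25, 13 and 25 counts in root libraries (log2 1.99, SE 0.55, adjusted p = 0.0246). CUT229 had 7, 3 and 5 counts in aerial and 18, 18 and 26 counts in root libraries (log2 1.96, SE 0.46, adjusted p = 0.0131). CUT916 had 0, 7 and 6 counts in aerial and 20, 15 and 15 counts in root libraries (log2 1.92, SE 0.59, adjusted p = 0.0360), and the count of 0 in aerial replicate 1 allows up to 3 counts. In each the groups did not overlap, but the aerial counts ran from 2 to 8 for CUT683, 3 to 7 for CUT229 and 0 to 7 for CUT916. CUT475 had low counts that were close within each cell type before scaling, 4, 3 and 3 in aerial and 12, 12 and 14 in root libraries (log2 1.84, SE 0.43, adjusted p = 0.0126). CUT723 had 7, 7 and 5 counts in aerial and 14, 19 and 37 counts in root libraries, with root replicate 3 far above the other 2 (log2 1.81, SE 0.48, adjusted p = 0.0204). CUT723 lost its call without aerial replicate 3 or root replicate 3 (adjusted p = 0.0804 and 0.0787), CUT475 without root replicate 1 or 3 (0.0503 and 0.0511), and CUT229 without aerial replicate 3 or root replicate 3 (0.0523 and 0.0553). CUT916 was called only without aerial replicate 1 or 2, with adjusted p of 0.075 to 0.123 without each other library. CUT683 was called only without aerial replicate 1 or root replicate 2, with adjusted p of 0.0532 to 0.0902 otherwise.

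The remaining 14 loci called higher in root cells had log2 fold changes of 1.08 to 1.68 and adjusted p-values of 0.00488 to 0.0421 by edgeR. Over all 24, the fold change ran from 2.11 to 4.97, every root library was above every aerial library in CPM, and the sign was the same whichever library was left out. In all 6 fits with a library left out, 7 of the 24 kept their call. DESeq2 called 23 of them. Only 6 had at least 10 counts in every library, and none of these was among the 10 with the largest differences.

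The 5 loci called higher in aerial cells showed the reverse pattern. The first line named CUT897 had 29, 90 and 92 counts in aerial and 17, 27 and 11 counts in root libraries, a mean of 4.36 ± 1.75 against 1.15 ± 0.453 CPM (SD, n = 3 each), and was 3.80-fold higher in aerial cells (log2 -1.93, SE 0.41, adjusted p = 0.00855). It was the only one of the 5 that was called whichever library was left out. The first line named CUT873 had 19, 37 and 28 counts in aerial and 14, 6 and 8 counts in root libraries (log2 -1.58, SE 0.38, adjusted p = 0.0139), and missed the threshold without root replicate 2 or 3 (adjusted p = 0.0703 and 0.0748). CUT228, the best covered of the aerial-side loci in CPM, had 65, 69 and 122 counts in aerial and 17, 42 and 35 counts in root libraries (log2 -1.51, SE 0.37, adjusted p = 0.0158). Its call was lost without aerial replicate 3, root replicate 1 or root replicate 3 (adjusted p = 0.0631, 0.0622 and 0.0567). CUT663 had 16, 12 and 15 counts in aerial and 3, 6 and 6 counts in root libraries (log2 -1.57, SE 0.45, adjusted p = 0.0278). CUT227 had 18, 23 and 24 counts in aerial and 9, 7 and 15 counts in root libraries and lay at the threshold (log2 -1.10, SE 0.37, adjusted p = 0.0496). CUT663 and CUT227 were called only without aerial replicate 2, with adjusted p of 0.0603 to 0.114 and 0.0573 to 0.2 when another library was left out. CUT227 and CUT228 were higher in aerial cells while CUT229 was higher in root cells. Positions were not used, so adjacent numbers are not read here as adjacent loci.

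**Figure D4:**
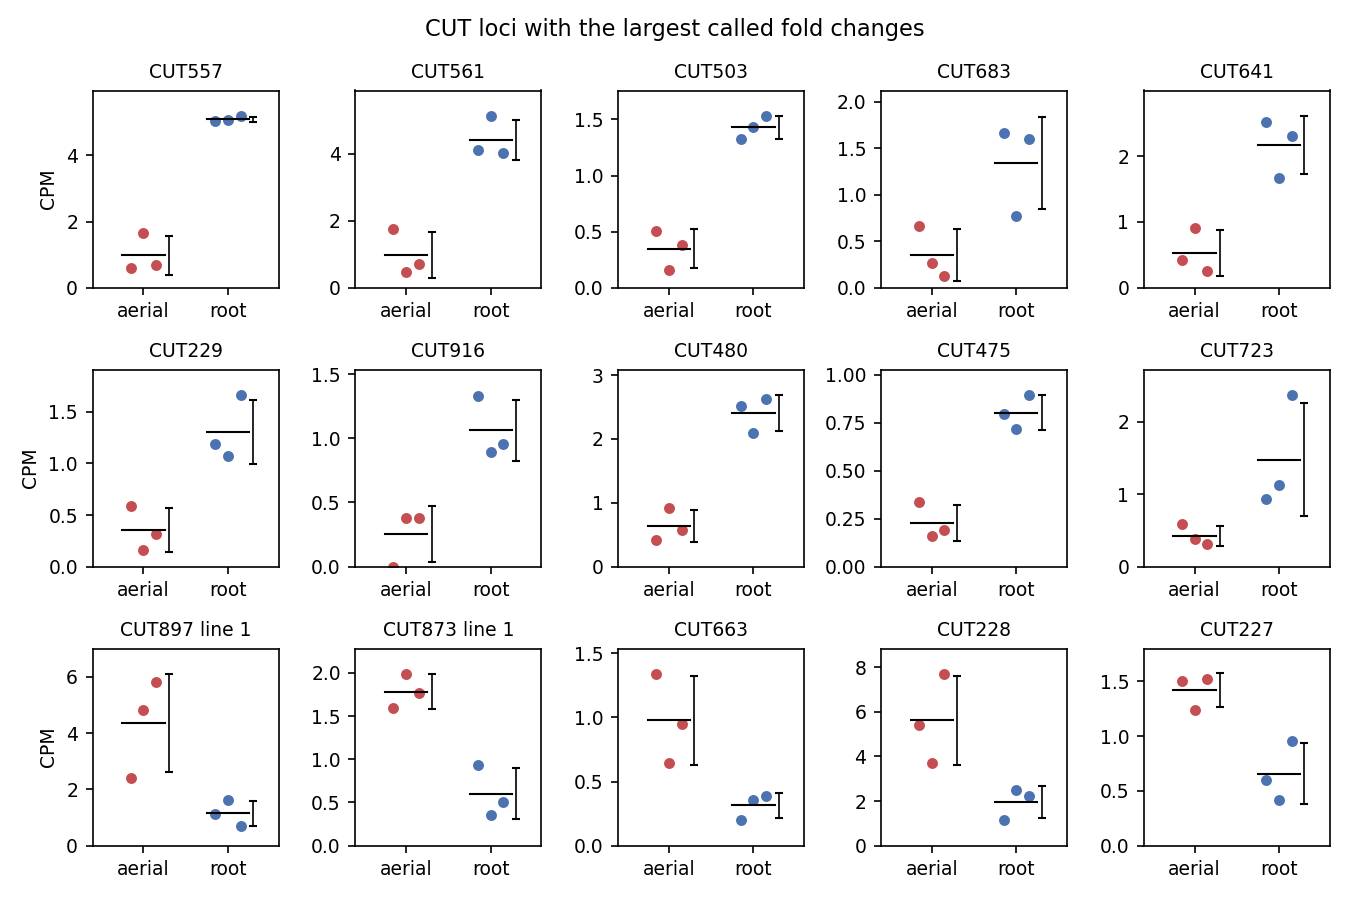
CPM of the 10 CUT loci with the largest called difference on the root side (upper and middle rows) and of the 5 called higher in aerial cells (lower row), for aerial (red) and root (blue) cells. Points are libraries, horizontal lines are means over 3 libraries and bars are SD; in every panel the highest library of the lower group is below the lowest library of the other group.

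The CUT loci with most counts were not among those called. CUT281, at 43.1 CPM the highest of the class, had 628, 863 and 520 counts in aerial and 545, 712 and 757 counts in root libraries, 6.10% to 10.9% of all CUT counts in the aerial and 5.98% to 8.04% in the root libraries. Its means of 43.9 ± 10.0 and 42.3 ± 6.13 CPM (SD, n = 3 each) differed by a log2 fold change of -0.05 (SE 0.22, adjusted p = 0.878), and the sign turned without aerial replicate 1 or root replicate 1. CUT904 had 419, 320 and 419 counts in aerial and 225, 245 and 269 counts in root libraries, and was not called, at 26.2 ± 8.90 against 15.6 ± 1.42 CPM (log2 -0.75, SE 0.27, adjusted p = 0.0604). CUT875 had 222, 113 and 226 counts in aerial and 148, 157 and 210 counts in root libraries (log2 -0.25, SE 0.37, adjusted p = 0.646), a value that changed sign without aerial replicate 1. CUT784 had 123, 193 and 117 counts against 142, 170 and 190 (log2 0.18, SE 0.23, adjusted p = 0.580). CUT866 had 120, 109 and 147 counts against 94, 108 and 104 (log2 -0.38, SE 0.25, adjusted p = 0.283). At each of these 5 loci the SD of the aerial libraries in CPM was larger than that of the root libraries.

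The 198 CUT loci that were tested and not called had log2 fold changes of -1.08 to 1.85 with a median of 0.19, and 124 of them were above 0. Of these, 114 lay within 0.5 of 0 on the log2 scale, 16 differed by a fold of at least 2 toward root cells and 2 toward aerial cells. Their median SE was 0.39 on the log2 scale. The 5 of these 2-fold loci nearest to the threshold, named after their values were seen, were CUT516 (log2 1.25, adjusted p = 0.0503), CUT146 (1.85, 0.0507), CUT833 (1.26, 0.0512) and CUT841 (1.62, 0.0518) on the root side and CUT372 (-1.04, 0.0510) on the aerial side.

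Of the 10 names on 2 lines, CUT368, CUT873, CUT171, CUT897 and CUT087 had at least 1 line in the test. For CUT368 the lines differed in level and in difference. The first had 49, 74 and 132 counts in aerial and 106, 93 and 83 counts in root libraries (log2 0.12, SE 0.32, adjusted p = 0.803), and the second had 18, 20 and 16 against 32, 42 and 45 (log2 1.08, SE 0.29, adjusted p = 0.0218) and was called. This second line stayed called only without aerial replicate 1 or 2, with adjusted p from edgeR of 0.0548 to 0.0875 when another library was left out. The second line of CUT873 had 8, 14 and 13 counts in aerial and 12, 9 and 6 counts in root libraries (log2 -0.39, SE 0.39, adjusted p = 0.465), where the first was called. For CUT171 the second line was called, with 5, 11 and 6 counts against 19, 15 and 16 (log2 1.15, SE 0.36, adjusted p = 0.0385), while the first, with 8, 10 and 5 counts against 15, 9 and 17, did not pass the filter. The second line of CUT171 stayed called only without aerial replicate 2, with adjusted p from edgeR of 0.067 to 0.151 when another library was left out. It was not called by DESeq2 (adjusted p = 0.0853) or by edgeR with the replicate block (adjusted p = 0.0762). The second line of CUT897, with 13, 6 and 14 counts in aerial and 2, 2 and 8 counts in root libraries, was not tested either. The first line of CUT087 had 5, 16 and 23 counts against 6, 9 and 11 (log2 -0.76, SE 0.48, adjusted p = 0.258), and the second summed to 8 counts. CUT231, CUT299, CUT340, CUT656 and CUT774 had between 6 and 40 counts in all on each of their lines and were not tested. What distinguishes the 2 lines of a name is not given in the sources used here, and differences between the lines of a name were not tested.

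The root libraries were more alike in their CUT levels than the aerial libraries. Distances, as root mean squares of the log2 CPM differences at the CUT loci tested, were 0.580, 0.473 and 0.519 between pairs of root libraries, and 1.14, 0.731 and 0.840 between aerial replicates 1 and 2, 1 and 3, and 2 and 3. Between cell types it ran from 0.863 to 1.17, so aerial replicates 1 and 2 lay as far apart as libraries of different cell types. Over all loci tested, pairs of root libraries differed by 0.323 to 0.396 and pairs of aerial libraries by 0.622 to 0.806.

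Genes of the machinery that ends, tails and degrades CUTs were measured in the same libraries. The list also held cytoplasmic decay, nonsense-mediated decay and cap-binding genes, so figures over all 33 cover a mixed list. All 33 genes looked up were tested, and 6 were called higher in root cells and 1 higher in aerial cells, 18.2% and 3.03%, beside 10.8% and 9.20% of all loci. Their median log2 fold change was 0.28, and 26 were above 0. The 6 on the root side were genes of the nuclear exosome and of TRAMP, and the 1 on the aerial side was STO1 of the cap-binding complex. Of the 13 exosome genes, all were above 0, with a median of 0.98, and 10 passed the adjusted threshold at any fold, as 15.9% of all loci did on the root side. There were 4 that also passed the fold of 2. The paper lists many ribosome biogenesis genes as higher in root cells, and whether the exosome genes differed from those was not tested. RRP42, a subunit of the exosome ring (chromosome IV, 263313 to 264110), had 37.81, 30.99 and 34.49 CPM in aerial and 92.3, 84.48 and 77.41 CPM in root libraries (log2 1.30, SE 0.17, adjusted p = 0.00121). RRP6, the nuclear exonuclease whose loss defines CUTs (chromosome XV, 326832 to 329033), had 117.6, 171.2 and 85.28 CPM in aerial and 246.7, 279.4 and 257.7 CPM in root libraries (log2 1.07, SE 0.26, adjusted p = 0.0144). DIS3, the catalytic subunit of the exosome core (chromosome XV, 282421 to 285426), differed by a log2 fold change of 1.06 (SE 0.25, adjusted p = 0.0133), and RRP40, a cap subunit (chromosome XV, 55558 to 56280), by 1.06 (SE 0.23, adjusted p = 0.00872). For all 4 the root libraries were above every aerial library. RRP40, DIS3 and RRP6 dropped below a fold of 2 with 1 library left out, at log2 0.85 to 0.86, and RRP42 was called in every such fit.

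In the TRAMP complex, all 5 genes were above 0 with a median of 0.73. MTR4, its helicase (chromosome X, 342522 to 345743), had 103.3, 207.8 and 70.5 CPM in aerial and 298.8, 333.7 and 320.2 CPM in root libraries (log2 1.32, SE 0.36, adjusted p = 0.0219). When 1 library was left out, MTR4 kept its call only without aerial replicate 2 (adjusted p = 0.000454), and otherwise had adjusted p of 0.0505 to 0.0589. AIR1, a zinc knuckle RNA-binding subunit (chromosome IX, 210923 to 212005), was called in every such fit (log2 1.23, SE 0.26, adjusted p = 0.0088). PAP2, the gene of the poly(A) polymerase Trf4, passed the adjusted threshold below the fold of 2 (log2 0.73, SE 0.18, adjusted p = 0.0165).

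The termination complex did not pass the test. NRD1 and NAB3, which encode its RNA-binding subunits, had log2 fold changes of 0.28 (SE 0.21, adjusted p = 0.331) and -0.15 (SE 0.21, adjusted p = 0.615), and the helicase gene SEN1 had -0.04 (SE 0.23, adjusted p = 0.915). None of the 3 cytoplasmic 5′ decay genes, the 4 cytoplasmic exosome cofactors or the 3 nonsense-mediated decay genes was called, with log2 fold changes of -0.55 to 0.21 over these 10. STO1, which encodes the large subunit of the nuclear cap-binding complex (chromosome XIII, 517539 to 520446), was the 1 gene called higher in aerial cells, with 840.6, 1575 and 1037 CPM in aerial and 482.4, 463.8 and 527.3 CPM in root libraries (log2 -1.23, SE 0.27, adjusted p = 0.0101). It kept its call in 3 of the 6 fits with a library left out. CBC2, the gene of the small subunit, had a log2 fold change of -0.11 (SE 0.22, adjusted p = 0.718). The part of these genes in the CUT levels was not tested.

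**Figure D5:**
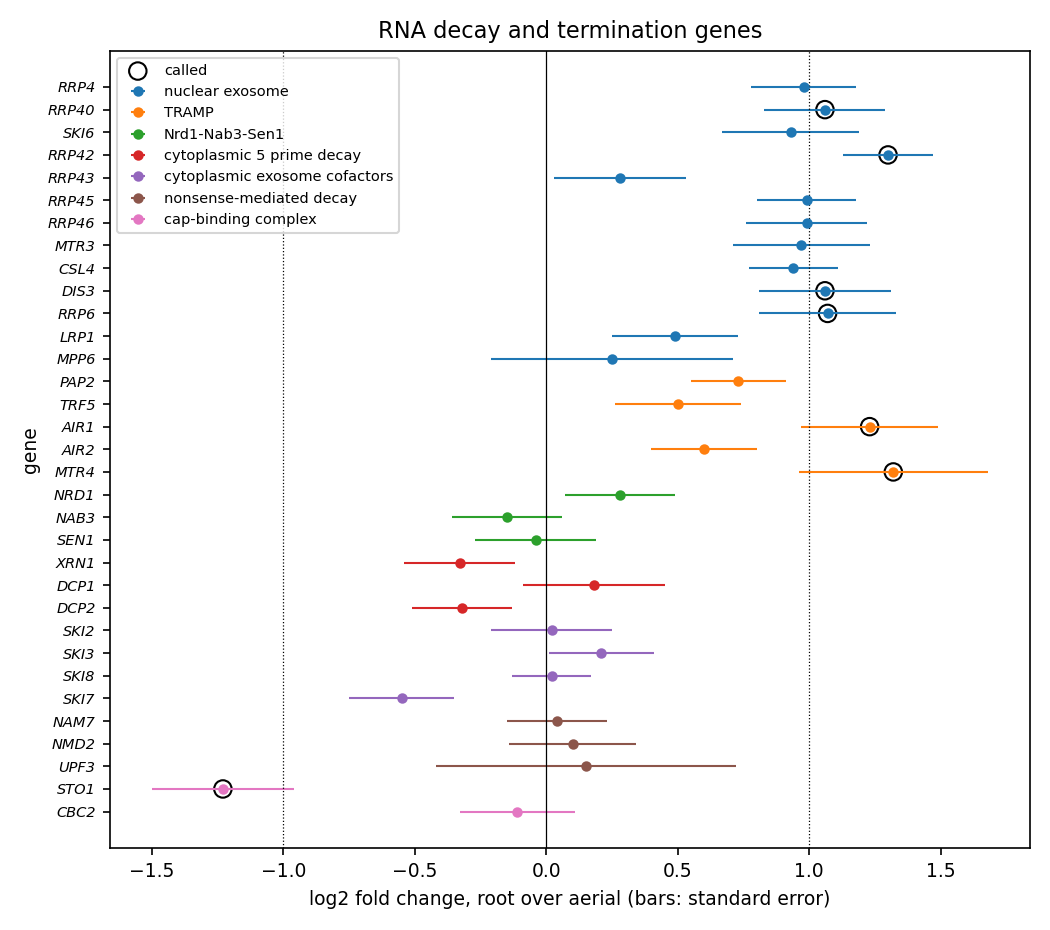
Log2 fold change of root over aerial cells for 33 RNA decay and termination genes, coloured by complex, with bars of 1 standard error and circles around the 7 genes called; dotted lines mark a fold change of 2. The 13 exosome genes lie between 0.25 and 1.30 and the 5 TRAMP genes between 0.50 and 1.32, whereas NRD1, NAB3 and SEN1 lie between -0.15 and 0.28.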

How the data were processed

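Total RNA of BR-F biofilm colonies grown for 3 days was sequenced in 3 libraries of aerial and 3 of root cells. The authors mapped the reads to the R64 (SacCer3) genome with TopHat2 2.0.14, using a transcript database that joined coding loci to trimmed and de-duplicated lncRNA loci of earlier studies, and assigned them to loci by strand with featureCounts. The deposited counts are whole reads per locus and were not normalized. The treatment of reads that match more than 1 locus is not given in the sources used here, and no molecular identifiers are described, so Wilson intervals and the floor of 3 counts cover counting error only. A line that names no locus (2 to 6 counts per library) was left out, and 0 value columns were.

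Counts were tested in R 4.3.3 with edgeR 4.0.16 (filterByExpr, TMM, quasi-likelihood F test) and, as an alternative, DESeq2 1.42.0. Python 3.11.15 was used for tables and figures, with numpy 2.4.6, pandas 2.3.3, scipy 1.17.1 and matplotlib 3.10.9. Adjusted p-values were those of edgeR (Benjamini-Hochberg, 7971 loci). TMM factors were 0.871 to 1.09, and the prior count for log2 CPM was 2. The fit was tested on simulated data with a single dispersion of 0.0574 for all loci and both cell types. That does not cover the wider spread of the aerial libraries or of single CUT loci. Decay genes were matched by symbol to R64, 33 of 33.

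Named loci were the 10 CUTs per direction with the largest called fold change without overlap, the 5 highest in mean CPM, repeated names, decay genes called, and RRP6, NRD1, NAB3, SEN1, PAP2 and MTR4. The members and lists were chosen with earlier results of these data known. Alternatives were other normalizations, filters, adjustment, no minimum fold, a replicate block and leaving out each library.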

Additional observations from a re-analysis of the deposited data

How the results depend on the processing

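The number of CUT loci called was 19 to 30 on the root side and 4 to 7 on the aerial side under DESeq2, 4 other normalizations, no filter, no minimum fold, adjustment over lncRNA loci and the replicate block. With at least 10 counts required in every library, 103 CUT loci were tested, with a median of 0.15 in log2 fold change. There were 6 calls on the root side and 2 on the aerial side. Of the 15 named, only the aerial-side loci CUT228 and the first line of CUT897 were among the calls. The construction of that filter, with fewer loci tested, gives the lower counts. With no filter, the median was 0.30, with 28 root-side and 4 aerial-side calls.

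Leaving out 1 library at a time gave 11 to 45 root-side and 1 to 12 aerial-side CUT calls, medians of 0.08 to 0.52, 6 to 14 of the 15 named loci and 4 to 12 decay genes. The shares of all loci called in these fits and the alternatives above are not given. These counts are therefore not read as changes particular to CUTs or decay genes. The root-minus-aerial difference in the CUT share of lncRNA counts (0.036 percentage points) then ran from -0.286 without aerial replicate 1 to 0.314 without aerial replicate 2, with -0.0218 without root replicate 2. That of the share of all counts ran from 0.00266 to 0.00845. Among the 25 named CUT loci examined in this way, the log2 fold changes that turned in sign were those of CUT281 (-0.23 to 0.10, positive without aerial replicate 1 or root replicate 1, where it was 0.05), CUT875 (-0.59 to 0.11, positive without aerial replicate 1) and the first line of CUT368 (-0.07 to 0.56, and -0.07, -0.03 and -0.01 without aerial replicate 2, aerial replicate 1 and root replicate 1), none of which was called.

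Whether the replicate numbers pair aerial with root samples is not given in the sources used here. Deviations of aerial and root libraries with the same number correlated at -0.142, 0.14 and -0.044, and not every library correlated best with its own number. With 3 libraries per cell type, these correlations cannot decide whether samples were paired. With the replicate block, there were 28 root-side and 4 aerial-side CUT calls, the median was 0.26, 14 of the 15 named loci stayed called and 11 decay genes were called in place of 7. The share of all loci called in this fit is not given, and the cause was not tested.

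Depth also limits these results. CUT loci had a median of 45 counts over 6 libraries, 311 of 538 were not tested, and only 8 of the 29 calls had at least 10 counts in every library.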
